A study of Homo sapiens with 6 samples.

Results

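The feedback inhibitors of the mitogen-activated protein kinase (MAPK) pathways were examined in TC28a2, an immortalized human chondrocyte line. The 10 members, *DUSP1*, *DUSP4*, *DUSP5*, *DUSP6*, *DUSP10*, *DUSP16*, *SPRY2*, *SPRY4*, *SPRED1*, and *SPRED2*, were taken by gene symbol from the 60623 genes of the count table. All 10 passed the filter on low counts and were among the 13966 genes tested. Cells received 2 μM mocetinostat, an inhibitor of class I histone deacetylases (HDACs), or the solvent DMSO for 24 hours, with 3 RNA-Seq samples per condition. Both conditions used the same line, so the results describe 1 immortalized line and not primary cartilage cells.

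Growth factor receptors signal through RAS, RAF, MEK, and ERK, and stress signals reach JNK and p38 through parallel kinase cascades. The dual-specificity MAP kinase phosphatases (MKPs) remove the activating phosphates from these kinases. Several are themselves transcribed in response to ERK activity, which closes a negative feedback loop. Sprouty and SPRED proteins act further upstream, between the receptor and RAF, and SPREDs bring the RAS inactivator neurofibromin to the membrane. In cartilage, fibroblast growth factor and EGF receptor signals that run through these cascades help to control chondrocyte growth and matrix turnover.

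Total counts ranged from 4873426 to 11031132 in the DMSO-treated samples and from 1619344 to 5089542 in the mocetinostat-treated samples, so the treated samples were less deeply sequenced. Levels in CPM (reads of a gene relative to the library total) were normalized by the TMM method, and replicates varied with a biological coefficient of variation of 9.3%. "Rose" and "fell" are used below for an adjusted p under 0.05 in the quasi-likelihood test of edgeR, adjusted by Benjamini-Hochberg over all genes tested. Upregulated and downregulated genes (URGs and DRGs) also had an absolute log2 fold change over 1. Each SE given is the absolute log2 fold change divided by the square root of the F statistic of that test. The levels are relative to all RNA in a library, so that fewer cells with a transcript cannot be told apart from less of it per cell, and a change in total RNA per cell does not show. Of 8 chondrocyte markers, 7 were tested and all 7 rose, beside 32.9% of all genes tested. *COMP* and *COL2A1*, with 0 to 8 and 7 to 26 reads per DMSO-treated sample, passed the filter on low counts through the treated samples. The summed level of the chondrocyte markers ranged from 115 to 141 CPM with DMSO and from 257 to 297 CPM with mocetinostat. *SOX9*, the master regulator of cartilage genes, made up most of that sum, at 106 ± 13.6 CPM with DMSO and 180 ± 14.4 CPM with mocetinostat (SD, n = 3). The cartilage genes *COL2A1* and *ACAN* were at 2.20 ± 0.683 and 4.72 ± 0.690 CPM (SD, n = 3) with DMSO. The summed level of 8 markers of other cell types ranged from 5.97 to 9.78 CPM with DMSO and from 24 to 36.5 CPM with mocetinostat. Of these 8 markers, 4 were tested and 3 rose (*EPCAM*, *CD14*, and *PECAM1*), beside 32.9% of all genes tested. These 3 had means of 0.317, 0.915, and 1.27 CPM with DMSO. They passed the filter on low counts through the treated samples, so their rise is no independent result. The T cell marker *CD3E* was at 0 in every library. The part of these markers in the results was not tested.

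Of the 10 members, 9 rose and 1, *DUSP16*, fell. Among all genes tested, 32.9% rose and 31.4% fell. The URGs were 6 members, *DUSP1*, *DUSP4*, *DUSP5*, *DUSP6*, *SPRY2*, and *SPRY4*, against 20.2% of all genes tested. No member was a DRG in the main edgeR fit (0 of 10, against 8.18% of all genes tested) or with DESeq2. *DUSP16* fell with a log2 fold change of -0.77 (adjusted p = 0.000134, edgeR), short of the limit for a DRG. CPM of treated and control samples had no overlap in 10 of 10 members and in 66.5% of all genes tested, either direction included. The median log2 fold change was 1.27 over the members and -0.002 over all genes tested. The members were chosen with earlier results of these data known, so these comparisons with all genes describe the list and do not test it. For a single gene, an exact two-sided permutation test over these samples could reach no p below 0.1.

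**Figure D1:**
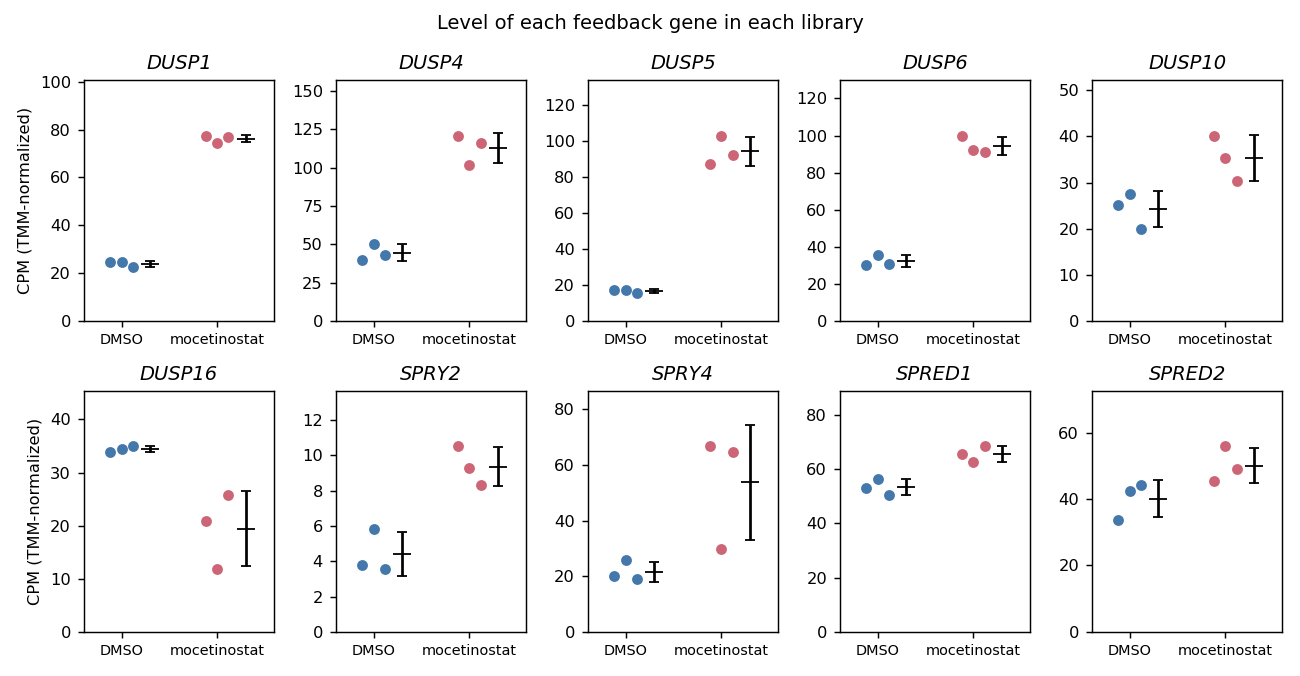
Level of each of the 10 members in each sample, in TMM-normalized CPM on a linear axis from 0 that differs between panels. Blue points are the 3 DMSO-treated and red points the 3 mocetinostat-treated samples, and black bars give the mean and SD. The conditions do not overlap in any panel, and SPRY4 in mocetinostat replicate 2 (29.7 CPM) lies close to the highest DMSO value (25.8 CPM).

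Sequence upstream of the members is shown first, for 3 genes that rose and the gene that fell. Promoter windows of 250 bases before the RefSeq transcription start (GRCh38.p14) were searched for 8 of 10 members. *DUSP5* had no window in the set used, and *DUSP4* was left out of the search. The windows run 5′ to 3′ on the gene's strand, position -1 is the base before the start, and capitals mark every match to the motifs searched. *DUSP1* lies at chr5:172771196-172771445, *DUSP6* at chr12:89352502-89352751, *SPRY4* at chr5:142324248-142324497, and *DUSP16* at chr12:12562864-12563113, all on the minus strand.
DUSP1: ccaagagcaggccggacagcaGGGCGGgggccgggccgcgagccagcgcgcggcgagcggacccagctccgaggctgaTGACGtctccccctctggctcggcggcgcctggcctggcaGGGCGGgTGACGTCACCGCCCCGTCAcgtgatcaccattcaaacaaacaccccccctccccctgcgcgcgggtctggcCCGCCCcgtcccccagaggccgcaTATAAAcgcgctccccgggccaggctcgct
DUSP6: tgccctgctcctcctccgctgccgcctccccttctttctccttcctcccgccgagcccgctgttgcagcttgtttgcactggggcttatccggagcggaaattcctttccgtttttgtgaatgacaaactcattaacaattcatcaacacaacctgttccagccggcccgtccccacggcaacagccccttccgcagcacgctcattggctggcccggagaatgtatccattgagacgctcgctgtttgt
SPRY4: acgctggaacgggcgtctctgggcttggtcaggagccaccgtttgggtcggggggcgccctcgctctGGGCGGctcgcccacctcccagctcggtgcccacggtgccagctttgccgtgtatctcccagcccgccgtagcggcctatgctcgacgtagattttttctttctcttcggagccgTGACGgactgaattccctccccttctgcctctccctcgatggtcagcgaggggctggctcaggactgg
DUSP16: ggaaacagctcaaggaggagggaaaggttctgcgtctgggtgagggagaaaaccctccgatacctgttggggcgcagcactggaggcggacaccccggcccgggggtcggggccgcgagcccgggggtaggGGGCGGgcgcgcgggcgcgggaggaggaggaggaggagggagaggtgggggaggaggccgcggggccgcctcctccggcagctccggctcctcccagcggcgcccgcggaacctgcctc

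The motifs were searched on both strands. They were the cyclic AMP response element (CRE, TGACGTCA), the short CRE core TGACG, AP-1 (TGACTCA), ETS (CCGGAAG), the GC box (GGGCGG), EGR (GCGGGGGCG), and the TATA box (TATAAA). The *DUSP1* window held a full CRE from -125 to -118, a sequence found in 1.65% of 35116 promoter windows, and a TATA box from -30 to -25, found in 10.7%. It also held 4 GC boxes, present in 42.6% of all windows, and 4 CRE cores, present in 21.2%. Of those cores, 2 lay within the CRE. The *SPRY4* window held 1 GC box and 1 CRE core, and that of *DUSP16*, the member that fell, held 1 GC box. None of these letters occurred in the *DUSP6* window. Among the windows not printed, the first of 3 for *SPRY2* held the EGR motif, found in 4.72% of all windows, which overlapped a GC box. The ETS motif (8.52% of all windows) and the AP-1 motif (4.2%) were in no window of the 8 members. The GC content was 74.4% for *DUSP1*, 57.2% for *DUSP6*, 65.6% for *SPRY4*, and 74.8% for *DUSP16*, beside a median of 58.0% over all windows. The GENCODE gene model of *SPRY4* extends past its RefSeq start, so that other starts lie upstream of the window shown. A match is a description of the letters and not a measured binding site.

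The largest changes among the members were those of the phosphatase genes *DUSP5*, *DUSP1*, and *DUSP6*. *DUSP5*, a nuclear phosphatase selective for ERK (ENSG00000138166, chromosome 10 from 110497907 to 110511533 of GRCh38), had 189, 82, and 106 reads in the DMSO-treated samples and 441, 166, and 222 reads in the mocetinostat-treated samples, given here and below in the order of replicates 1, 2, and 3. These were 17.1, 17.1, and 15.6 CPM against 87.4, 103, and 92.0 CPM. The lowest treated sample was far above the highest control. *DUSP5* rose by a log2 fold change of 2.49 (SE 0.14, adjusted p = 1.72e-26, edgeR), the largest of the members, higher than 91.4% of all genes tested.

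*DUSP1*, the immediate-early nuclear phosphatase that acts on p38 and JNK as well as ERK (ENSG00000120129, chromosome 5 from 172768096 to 172771195), had 273, 118, and 153 reads after DMSO and 391, 120, and 185 reads after mocetinostat. The levels were 24.7, 24.6, and 22.5 CPM with DMSO and 77.5, 74.4, and 76.7 CPM with mocetinostat. The replicates within each condition were within a few CPM of each other. *DUSP1* rose from 23.9 ± 1.21 to 76.2 ± 1.63 CPM (SD, n = 3), and its log2 fold change was 1.67 (SE 0.13, adjusted p = 2.17e-18, edgeR).

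*DUSP4*, a further inducible nuclear phosphatase (ENSG00000120875, chromosome 8 from 29333064 to 29350684), had 440, 242, and 293 reads after DMSO and 609, 165, and 279 reads after mocetinostat. In CPM these were 39.8, 50.4, and 43.2 against 121, 102, and 116, so that the lowest treated sample was well above the highest control. *DUSP4* rose with a log2 fold change of 1.37 (SE 0.12, adjusted p = 8.32e-17, edgeR). *DUSP6*, the cytoplasmic ERK phosphatase widely read as a marker of ERK activity (ENSG00000139318, chromosome 12 from 89347235 to 89352501), had 336, 172, and 207 reads after DMSO and 506, 149, and 220 reads after mocetinostat. Its levels were 30.4, 35.8, and 30.5 CPM with DMSO and 100, 92.3, and 91.2 CPM with mocetinostat. The conditions did not overlap, and the log2 fold change was 1.57 (SE 0.13, adjusted p = 2.82e-18, edgeR). An antisense gene (ENSG00000274021) covers 28.6% of the exon bases of *DUSP6*. It held 0 to 5 counts per library, and strand use in the counting was not stated, so reads over the shared bases cannot be told apart. The exons of the other 9 members overlap no other annotated gene.

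The phosphatases that prefer JNK and p38 did not move together. *DUSP10* (ENSG00000143507, chromosome 1 from 221701424 to 221742089) had 279, 132, and 136 reads after DMSO and 203, 57, and 73 reads after mocetinostat, or 25.2, 27.5, and 20 CPM against 40.2, 35.3, and 30.3 CPM. The lowest treated sample was only a little above the highest control. *DUSP10* rose with a log2 fold change of 0.57 (SE 0.17, adjusted p = 0.00211, edgeR), under the limit for a URG. Without mocetinostat replicate 1 its log2 fold change was 0.42 with an adjusted p of 0.0783 from the same edgeR test, and over all alternatives the adjusted p ranged from 2.61e-07 to 0.177.

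*DUSP16* (ENSG00000111266, chromosome 12 from 12473282 to 12562863), the member that fell, had 375, 165, and 237 reads after DMSO and 105, 19, and 62 reads after mocetinostat. The DMSO-treated samples were closely grouped at 33.9, 34.4, and 34.9 CPM, and the treated samples were spread over 20.8, 11.8, and 25.7 CPM. All 3 treated samples were below all 3 controls, with the lowest value in mocetinostat replicate 2. The log2 fold change was -0.77 (SE 0.18, adjusted p = 0.000134, edgeR). With each library scaled to its *GAPDH* count it was -0.23 with an adjusted p of 0.29, a setting that moved the median of all genes up by 0.536.

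The Sprouty genes encode inhibitors of receptor tyrosine kinase signals to RAS and RAF. *SPRY4* (ENSG00000187678, chromosome 5 from 142310427 to 142326455) had 220, 124, and 128 reads after DMSO and 336, 48, and 156 reads after mocetinostat. The levels were 19.9, 25.8, and 18.9 CPM against 66.6, 29.7, and 64.7 CPM. Mocetinostat replicate 2 was far below the other treated samples and only slightly above the controls. It is the least deeply sequenced library, whose part in this value was not tested. *SPRY4* rose with a log2 fold change of 1.4 (SE 0.17, adjusted p = 2.25e-11, edgeR), and when any 1 sample was dropped it lay between 1.19 and 1.61.

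*SPRY2* (ENSG00000136158, chromosome 13 from 80335976 to 80341126) had the fewest counts of the members, with 42, 28, and 24 reads after DMSO and 53, 15, and 20 reads after mocetinostat. Its levels were 3.80, 5.83, and 3.54 CPM with DMSO and 10.5, 9.30, and 8.29 CPM with mocetinostat. The conditions did not overlap despite the low counts. The log2 fold change was 1.16, and its SE of 0.33 was the largest of the members (adjusted p = 0.00161, edgeR). The number of member URGs was 6 with edgeR and 5 when edgeR's glmTreat tested against a log2 fold change of 1.

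Of the 10 members, *SPRED1* and *SPRED2* changed least. *SPRED1* (ENSG00000166068, chromosome 15 from 38252836 to 38357249), whose loss in the germline causes Legius syndrome, had 586, 271, and 343 reads after DMSO and 331, 101, and 165 reads after mocetinostat, or 53.0, 56.4, and 50.5 CPM against 65.6, 62.6, and 68.4 CPM. *SPRED2* (ENSG00000198369, chromosome 2 from 65310851 to 65432637), its paralog, had 374, 204, and 299 reads after DMSO and 229, 90, and 118 reads after mocetinostat, or 33.8, 42.5, and 44.1 CPM against 45.4, 55.8, and 48.9 CPM. Treated samples were higher in both genes by margins of a few CPM. *SPRED1* rose with a log2 fold change of 0.30 (SE 0.12, adjusted p = 0.0281, edgeR) and *SPRED2* with 0.31 (SE 0.14, adjusted p = 0.0499, edgeR). Both calls depended on the setting. With DESeq2 the adjusted p was 0.142 for *SPRED1* and 0.233 for *SPRED2*, and each lost its call in 5 of 6 fits made without 1 of the samples.

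**Figure D2:**
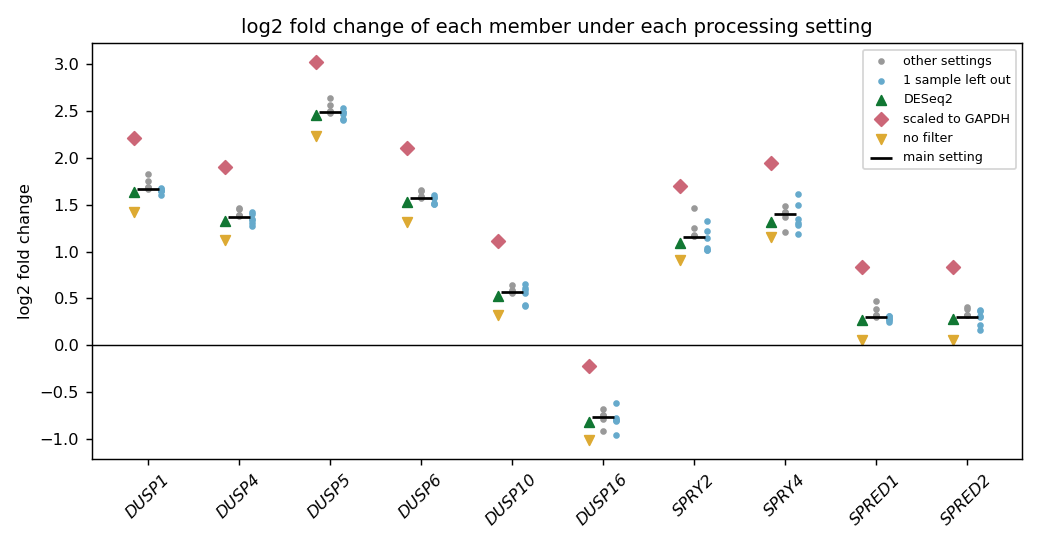
The log2 fold change of each member (vertical axis, mocetinostat against DMSO) under the reported setting and its alternatives. DUSP5 lies between 2.23 and 3.02 in all of them, DUSP16 stays below 0 in all of them, from -1.02 to -0.23, and SPRED1 and SPRED2 come down to 0.052 and 0.055 without a filter.

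Levels per exon length (RPKM) changed order with treatment. With DMSO, *DUSP1* was highest at 11.9 ± 0.608 RPKM (SD, n = 3), above every other member. *DUSP10* (8.58 ± 1.35), *DUSP6* (8.36 ± 0.800), *SPRED2* (7.29 ± 0.997), *SPRED1* (6.88 ± 0.382), *DUSP5* (6.55 ± 0.335), and *DUSP4* (6.11 ± 0.745 RPKM) followed, and each overlapped its neighbour in this order. *DUSP16* (4.83 ± 0.0702), *SPRY4* (3.29 ± 0.571), and *SPRY2* (1.36 ± 0.389 RPKM) came last without overlap. With mocetinostat, *DUSP1* (37.8 ± 0.833) and *DUSP5* (37.1 ± 3.13 RPKM) led and overlapped each other, ahead of *DUSP6* (24.5 ± 1.31 RPKM). *DUSP4* (15.5 ± 1.29) and *DUSP10* (12.5 ± 1.75 RPKM) came next and overlapped. *SPRED2* (9.08 ± 0.941), *SPRED1* (8.46 ± 0.370), and *SPRY4* (8.20 ± 3.17 RPKM) overlapped in turn, and *SPRY2* (2.91 ± 0.346) and *DUSP16* (2.72 ± 0.990 RPKM) were lowest and overlapped.

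The shares of single genes in the phosphatase RNA differed between the conditions. Summed over the 10 MKP genes, RPKM was 63.1, 70.2, and 63.4 after DMSO and 152, 150, and 145 after mocetinostat, a ratio of 2.27 between the means. *DUSP1*, *DUSP4*, *DUSP5*, and *DUSP6*, summed because they were the phosphatase URGs among the members, held 51.3%, 50.1%, and 49.2% of that sum with DMSO and 76.2%, 76.9%, and 78.8% with mocetinostat. That choice fixes the direction of their joint share. *DUSP5* went from 10% ± 0.603 to 24.9% ± 2.15 of the sum (SD, n = 3), *DUSP16* from 7.38% ± 0.450 to 1.84% ± 0.699, and *DUSP7*, a cytoplasmic ERK phosphatase that is no member, from 22.2% ± 2.15 to 7.77% ± 0.680. *DUSP10* went from 13.1% ± 1.62 to 8.37% ± 0.991 although its level rose, and *DUSP2*, an inducible nuclear phosphatase, from 1.69% ± 0.805 to 0.355% ± 0.124. Each of these shares differed without overlap between the conditions. The shares of *DUSP4* (9.31% ± 0.607 and 10.4% ± 0.914) and *DUSP9* (3.41% ± 0.572 and 3.58% ± 0.917) overlapped. *DUSP2* did not pass the filter on low counts, with 22, 6, and 21 reads after DMSO and 6, 1, and 3 reads after mocetinostat. Summed RPKM of the 4 Sprouty genes was 5.14 ± 1.02 with DMSO and 13.9 ± 2.36 with mocetinostat, and that of the 3 SPRED genes was 15.1 ± 1.22 and 19.7 ± 0.850. A share within a library does not depend on the scaling between libraries.

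**Figure D3:**
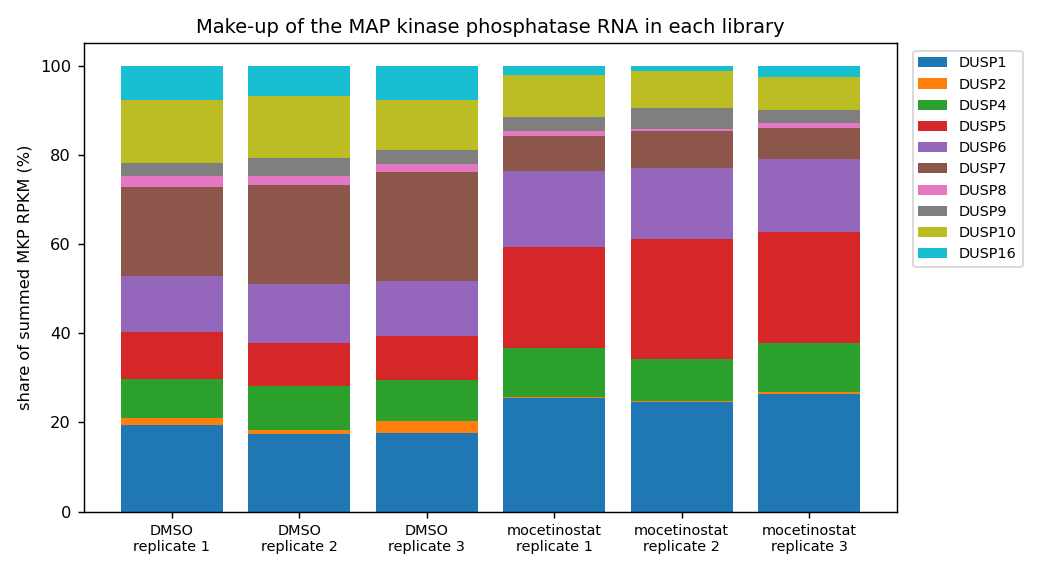
Share of each of the 10 MKP genes (stacked bars, percent of their summed RPKM) in each of the 6 samples. The block formed by DUSP1, DUSP4, DUSP5, and DUSP6 covers 49.2% to 51.3% of the DMSO bars and 76.2% to 78.8% of the mocetinostat bars.

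Related genes, all of them members except *DUSP7*, were also compared within each library by the ratio of their counts. The ratio of *DUSP5* to *DUSP1* was 0.692, 0.695, and 0.693 after DMSO and 1.13, 1.38, and 1.20 after mocetinostat. The ratio of *DUSP10* to *DUSP16*, both JNK and p38 phosphatases, was 0.744, 0.800, and 0.574 with DMSO and 1.93, 3.00, and 1.18 with mocetinostat. *DUSP5* thus gained on *DUSP1*, and *DUSP10* on *DUSP16*, in every treated sample. The change in the log2 ratio was 0.83 for *DUSP5* to *DUSP1*, 1.44 for *DUSP10* to *DUSP16*, 0.21 for *DUSP6* to *DUSP4*, and 1.88 for *DUSP6* to *DUSP7*, each with an exact two-sided permutation p of 0.1, the smallest possible here, and an adjusted p of 0.15 over the 6 pairs compared. For *SPRY4* to *SPRY2* the change was 0.12 (exact permutation p = 0.8, adjusted 0.9), and for *SPRED1* to *SPRED2* it was -0.02 (exact permutation p = 0.9, adjusted 0.9), and the conditions overlapped in both. None of the 6 pairs passed a threshold of 0.05.

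The other genes of these families were *DUSP2*, *DUSP7*, *DUSP8*, *DUSP9*, *SPRY1*, *SPRY3*, and *SPRED3*. Of the 7, 6 were tested, 4 rose, 1 fell, and 1 did not pass the test. Among all genes tested, 32.9% rose and 31.4% fell. The median log2 fold change of the 6 family genes was 1.24. With at least 10 counts in every sample, 3 were tested, 2 were higher, and the median was 1.31. *SPRED3* rose with a log2 fold change of 1.25 (SE 0.29, adjusted p = 0.000154, edgeR) and *DUSP9*, a cytoplasmic ERK phosphatase, with 1.23 (SE 0.28, adjusted p = 8.21e-05, edgeR). *DUSP7* had 790, 425, and 592 reads after DMSO and 343, 115, and 139 reads after mocetinostat. It fell by 0.32 on the log2 scale (SE 0.12, adjusted p = 0.0161, edgeR), but with *GAPDH* scaling its log2 fold change was 0.21 (adjusted p = 0.156). *SPRY1* and *SPRY3*, chosen after their values were seen, rose with log2 fold changes of 2.83 (SE 0.44, adjusted p = 6.33e-08, edgeR) and 1.41 (SE 0.50, adjusted p = 0.0106, edgeR), from low levels of 1.22 ± 0.217 and 1.91 ± 0.842 CPM (SD, n = 3). With 7 to 13 and 10 to 18 reads per DMSO-treated sample, both passed the filter through the treated samples. *SPRY3* did not pass without mocetinostat replicate 2 (0.82, adjusted p = 0.208, edgeR) or without DMSO replicate 1 (adjusted p = 0.106, edgeR), and its adjusted p was 0.0646 with DESeq2 and 0.0776 without a filter. The other 3 Sprouty genes passed each test against no change in which they were included, whereas *DUSP8* (log2 fold change -0.07, adjusted p = 0.865, edgeR) did not pass the test.

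**Figure D4:**
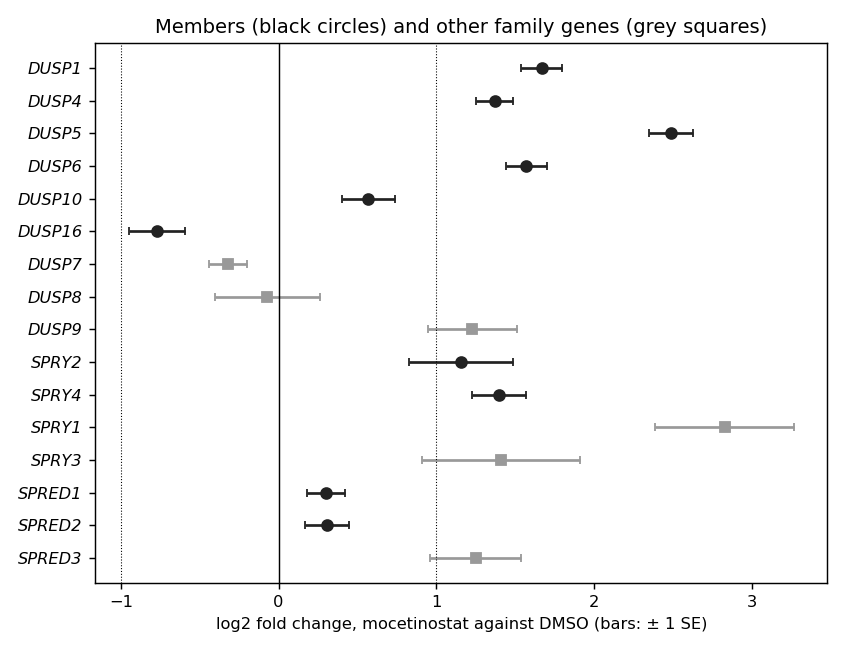
The log2 fold change of the 10 members (black circles) and of 6 other family genes (grey squares), mocetinostat against DMSO, with bars of 1 SE. DUSP5 (2.49) and SPRY1 (2.83) lie farthest to the right and DUSP16 (-0.77) farthest to the left. SPRY1, at a mean of 1.22 CPM with DMSO, passed the filter through the treated samples. Dotted lines mark a log2 fold change of 1 in either direction.

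Upstream of the feedback genes, 9 of 13 receptor tyrosine kinase genes rose and 2 fell, beside 32.9% and 31.4% of all genes tested. The median log2 fold change of the 13 was 0.98. Some of these receptor genes had few reads with DMSO and passed the filter through the treated samples. With at least 10 counts in every sample, 9 were tested, 6 were higher and 2 lower, and the median was 0.29. *FGFR1*, the most abundant on the mean over both conditions, rose from 225 ± 8.15 to 442 ± 22.6 CPM (SD, n = 3), and its log2 fold change was 0.98 (SE 0.08, adjusted p = 2.78e-18, edgeR). *FGFR2*, *ERBB3*, and *PDGFRA* rose from low levels of 6.05 ± 1.73, 1.61 ± 0.763, and 0.885 ± 0.180 CPM to 47.2 ± 2.45, 19.4 ± 3.81, and 13.6 ± 4.60 CPM (SD, n = 3). The receptors that fell, chosen after their values were seen, were *ERBB2*, from 81.6 ± 3.64 to 29.2 ± 6.85 CPM, and *PDGFRB*, from 105 ± 4.59 to 51.9 ± 8.51 CPM (SD, n = 3). *KIT* had 0, 0, and 3 reads after DMSO and 78, 27, and 40 reads after mocetinostat. Of 10 ligand genes, 8 were tested and 6 rose, beside 32.9% of all genes tested. All 8 had a log2 fold change above 0 (median 1.38). *AREG* and *EREG*, with 0 to 6 reads per DMSO-treated sample, passed the filter through the treated samples. If every sample had to hold 10 counts, 4 were tested with a median of 0.72. The EGF receptor ligands *AREG*, *TGFA*, and *EREG* went from 0.328 ± 0.289, 1.33 ± 0.692, and 0.227 ± 0.317 CPM to 33.6 ± 5.96, 17.4 ± 5.17, and 10.2 ± 1.99 CPM (SD, n = 3), and *PDGFB* rose from 5.72 ± 0.987 to 21.9 ± 3.07 CPM (SD, n = 3). *FGF2*, the most abundant ligand, was at 86.1 ± 12.2 and 98 ± 17.5 CPM (SD, n = 3; log2 fold change 0.19, adjusted p = 0.15, edgeR).

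Genes of the kinase cascade itself fell more often than they rose under TMM normalization. Of 16 adaptor, RAS, RAF, MEK, and ERK genes, 4 rose and 10 fell, with a median log2 fold change of -0.50. Among all genes tested, 32.9% rose and 31.4% fell. With *GAPDH* scaling 5 of the 16 were higher and 4 lower with a median of 0.03. That setting moved the median of all genes up by 0.536, and 7710 of 13966 genes were higher and 1371 lower. Of the 16, the count of higher genes was 2 with DESeq2, 2 with thinned libraries, and 1 without a filter. That count was also 2 without DMSO replicate 1, 2, or 3 or mocetinostat replicate 1 or 2. *NRAS*, one of the RAS GTPases, fell from 110 ± 4.23 to 52.3 ± 0.808 CPM (SD, n = 3), and *PTPN11*, which encodes the phosphatase SHP2 that promotes RAS activation, fell from 424 ± 11.6 to 245 ± 12.1 CPM. Of 11 genes of the JNK and p38 cascades, 10 were tested, 5 rose, and 3 fell, with a median log2 fold change of 0.28, and with *GAPDH* scaling 7 were higher and 1 lower with a median of 0.82. Those that rose included the p38-activating kinases *MAP2K6* (2.42, SE 0.27) and *MAP2K3* (0.71, SE 0.11) and the p38 gene *MAPK11* (1.00, SE 0.23), whereas the p38 gene *MAPK12* fell (-1.14, SE 0.19), all given as log2 fold changes.

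Negative regulators outside the member families moved in both directions. Of 10, 2 rose and 4 fell (median log2 fold change -0.16), beside 32.9% and 31.4% of all genes tested. With *GAPDH* scaling 6 were higher and 1 lower, beside 7710 and 1371 of all 13966 genes tested. The 2 that rose were *IL17RD*, which encodes the FGF signaling inhibitor SEF (log2 fold change 2.89, SE 0.20, adjusted p = 2.04e-21, edgeR), and *ERRFI1*, which encodes the EGF receptor inhibitor MIG6 (1.11, SE 0.08, adjusted p = 1.67e-19, edgeR). *PEA15*, which holds ERK in the cytoplasm, fell by 0.34 on the log2 scale (SE 0.08, adjusted p = 0.000117, edgeR), but its log2 fold change was 0.19 (adjusted p = 0.0786) with *GAPDH* scaling. Of 11 genes known as transcriptional outputs of ERK, 10 rose and 1 fell, beside 32.9% and 31.4% of all genes tested. The median log2 fold change of the 11 was 1.23. *ETV1* and *EPHA4*, with 6 to 17 and 0 to 11 reads per DMSO-treated sample, passed the filter through the treated samples. With at least 10 counts in every sample, 9 were tested, 8 were higher and 1 lower, and the median was 0.66. *FOS* rose from 4.64 ± 0.888 to 25.1 ± 3.19 CPM, *IER3* from 165 ± 32.2 to 535 ± 38.4 CPM, *ETV1* from 1.32 ± 0.190 to 20.1 ± 4.4 CPM, and *EPHA4* from 0.577 ± 0.516 to 11.3 ± 2.99 CPM (SD, n = 3). The gene that fell was *FOSL1* (log2 fold change -1.48, SE 0.11, adjusted p = 4.6e-19, edgeR), chosen after its value was seen. ERK phosphorylation was not measured in these data.

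**Figure D5:**
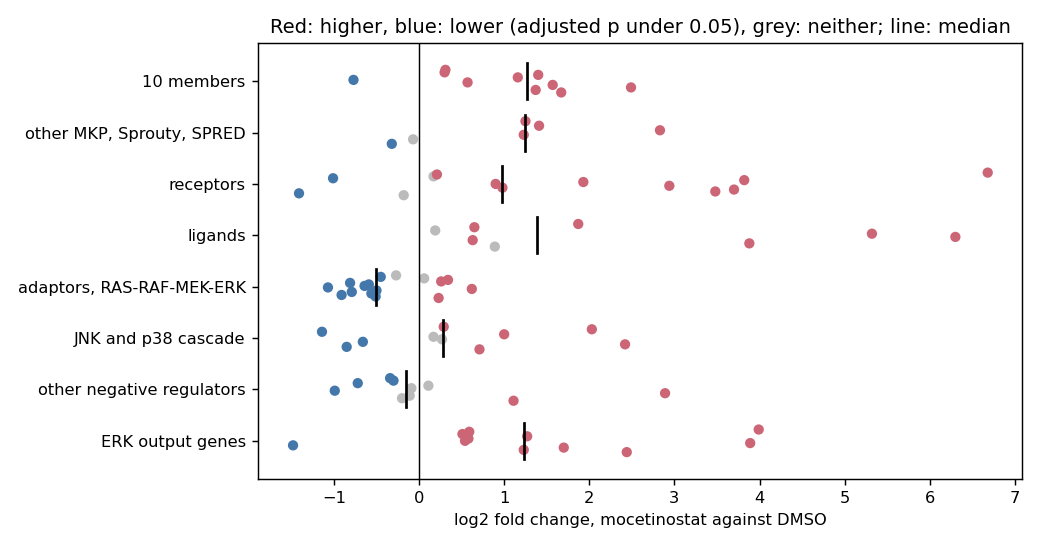
The log2 fold change of every tested gene of each list (horizontal axis, mocetinostat against DMSO). Red points rose, blue points fell, grey points passed no test, and vertical lines are list medians. The members (median 1.27) and ERK output genes (1.23, or 0.66 with at least 10 counts in every sample) lie mostly to the right of 0. The adaptor and RAS to ERK genes (median -0.50) lie mostly to the left. With GAPDH scaling, which moved the median of all genes up by 0.536, the median of the adaptor and RAS to ERK genes was 0.03.

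The genes whose levels followed a member most closely were found by the root mean square difference of centred log2 CPM over the 6 samples, among 10974 genes with at least 10 CPM in 1 condition. For *DUSP4*, the member phosphatase with the highest mean CPM, they were *OSBPL5* (0.0308), *AC105942.1* (0.0351), and *ABTB1* (0.0538). For *SPRY4* they were *ICAM5* (0.149), *SYT16* (0.152), and *DDX60L* (0.158), farther away than for *DUSP4*. For *SPRED1* they were *ACTR5* (0.0356), *UACA* (0.0374), and *TP53BP2* (0.0424). With 6 samples in 2 conditions, a gene with a like difference between the conditions comes out close on this measure.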

How the data were processed

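RNA-Seq counts came from TC28a2 cells after 24 hours in 2 μM mocetinostat or in DMSO (3 samples each, from separate experiments per the paper). The authors deposited whole raw counts per gene, made by adapter trimming, removal of ribosomal RNA reads, alignment to GRCh38 with STAR 2.6.1d, and counting with featureCounts 1.6.4; strand and multi-mapping settings are not given in the sources used here. edgeR 4.0.16 (TMM, filterByExpr minimum count 10, quasi-likelihood test, treatment only, Benjamini-Hochberg) was used on the 6 samples; alternatives included DESeq2 1.42.0, other scalings and filters, thinned libraries, the replicate block, and leaving out each sample. RPKM used GENCODE 44 exon lengths (99.5% of identifiers matched). Within-library ratios were compared by exact permutation tests. The fits were tested on simulated data.

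The members and lists were chosen with earlier results of these data known. Named were all members and, of each other list, the most abundant gene (mean over both conditions) and up to 4 URGs or DRGs with the largest fold change and at least 10 CPM in 1 condition; others are marked. Python 3.11.15, pandas 2.3.3, scipy 1.17.1, and matplotlib 3.10.9 were used. Replicates of a condition differed by more than sampling noise.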

Additional observations from a re-analysis of the deposited data

How the results depend on the processing

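Across 14 alternatives, the log2 fold changes of the 10 members kept their direction in all 140 comparisons, and the side of the threshold changed in 18. *DUSP1*, *DUSP4*, *DUSP5*, *DUSP6*, *SPRY2*, and *SPRY4* passed the test in every alternative. With *GAPDH* scaling, which moved the median of all genes by 0.536, 0 members were lower, and *DUSP7* (0.21), *PEA15* (0.19), and *DUSP8* (0.47) changed sign. Without a filter, which moved that median by -0.251, 1 member was a DRG (*DUSP16*, -1.02), 5 were URGs (*SPRY2* was at 0.91), *FGF2* changed sign (-0.065), and *DUSP10* (adjusted p = 0.177, edgeR), *SPRED1* (0.789), and *SPRED2* (0.798) did not pass. When libraries were thinned to the smallest total, *SPRED2* had an adjusted p of 0.0526 (edgeR). The cause of these changes was not tested. When any 1 sample was dropped, between 6 and 8 members were higher, 1 was lower, and 6 were URGs, and the log2 fold change of *DUSP8* lay between -0.35 (without mocetinostat replicate 1) and 0.11 (without mocetinostat replicate 2). The replicate block gave 9 members higher, 1 lower, and 6 URGs, as without it. Correlations of same-numbered samples were 0.013, 0.017, and -0.022, under the 0.1 required here for treating them as pairs. Genes past the test in the 7 other lists numbered 61, and between 50 and 64 in the alternatives. Among the members, *SPRY2* had the fewest counts, 15 to 53 per sample.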
